A study of Oryctolagus cuniculus with 8 samples.

Results

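The genes described here encode proteins of the cytosolic ribosome, factors that carry it through initiation and elongation, and some regulators of these factors. Their RNA was measured by RNA-seq in limbal cells of New Zealand white rabbits. They were chosen by symbol alone: RPL and RPS symbols with a number, EIF symbols with a number, and EEF1 and EEF2 symbols, each listed once. EIF2AK2, the S6 kinase genes and numbered gene copies were left out. The rule itself uses no measured value, although it was set with earlier results of these data known. Of the 20922 gene entries of the table, 100 matched the symbol pattern and 93 were members. They comprised 50 ribosomal proteins (19 of the small and 31 of the large subunit) and 43 translation factors. Counted with the factors are regulators of them, the kinase genes EIF2AK3, EIF2AK4 and EEF2K and the repressor genes EIF4EBP2 and EIF4EBP3. RPLP0, RPLP1, RPL13A, RPL10, EEF2 and EIF4EBP1 were not analysed here.

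The study sorted cells of the limbus, the rim of the cornea that holds its stem cells, after staining with the DNA dye Hoechst. Side population (SP) cells pump the dye out, a trait that is used to search for stem cells, and non-side-population (NSP) cells retain it. Each group had 4 libraries of total RNA, sequenced on an Ion Proton instrument, and the comparison asks how the 2 sorted fractions differ. All libraries were labelled as limbal epithelial cells of the same breed, and no genetic change or treatment was named. Whether each library stands for its own animal or for a pool is not in the labels. The p-values below therefore reflect the variation among these 8 libraries, part of which may be technical.

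A ribosome consists of a small subunit that reads the messenger RNA and a large subunit that joins amino acids, each an assembly of ribosomal RNA and many proteins. Initiation factors bring the small subunit, the initiator transfer RNA and the capped message together, and elongation factors then deliver each amino acid and move the ribosome along. The cell limits this costly process mainly through phosphorylation of eIF2, through repressors that hold the cap-binding protein eIF4E, and through the kinase that inactivates eEF2. In stem cells of several tissues, protein synthesis is known to run at a low rate, which RNA levels do not measure.

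SP libraries held between 15553295 and 18931836 exon reads and NSP libraries between 20445565 and 23529101. Levels are given as CPM, reads scaled to a common total with TMM factors, and libraries are numbered 1 to 4 within a group in the order of the columns. The epithelial label was checked against marker genes. Of 12 epithelial markers, 11 were lower in SP, and their summed level was 1134 to 7363 CPM in SP against 23301 to 42782 CPM in NSP. All 9 endothelial markers were higher in SP (summed 1933 to 17453 CPM against 9.11 to 15.4 CPM), as were all 7 T and NK cell markers (1913 to 8119.6 CPM against 1.11 to 2.85 CPM, with CD8B and CXCR6 at 0 in NSP). The 4 tested B and plasma cell markers were also higher in SP (all 6 markers summed to 245 to 732 CPM against 0.186 to 1.22 CPM, with MS4A1, MZB1 and POU2AF1 at 0 in NSP). Of the myeloid markers, 6 of 7 were higher (1145 to 2443 CPM against 35.4 to 57.4 CPM), as were all 7 of melanocytes (2139 to 13274 CPM against 149.6 to 307 CPM). Most of the myeloid sum in SP came from 1 gene, LAPTM5, with 668.9 to 1990.1 CPM. Stromal and mural cells gave 6 higher and 1 lower of 8 (214 to 387 CPM against 42.8 to 57.2 CPM, with COL3A1 and LUM at 0 in NSP), and Schwann cells 4 higher and 1 lower of 7 (472 to 1286 CPM against 225 to 311 CPM). Markers of several other cell types thus moved with the SP label in the libraries in which every gene below was measured, and their part in each result was not tested. In such bulk samples, fewer cells of a type and less RNA per cell cannot be told apart.

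Few translation genes differed between the fractions. With limma-voom at a Benjamini-Hochberg adjusted p of 0.05 over 10012 tested genes, 7 of 91 tested members rose in SP, 1 fell and 83 were not called. RPS29, EIF2AK3, EIF1B, EEF2K, EIF4E3, EIF2B2 and EIF3A were the genes that rose, and EIF2B3 fell. These are 8.79% of the members, against 30.8% of all tested genes, of which 17.6% were higher and 13.3% lower in SP. The count of 7 was 3 without any of SP library 3 and NSP libraries 1 to 3, 2 without NSP library 4 or with upper-quartile factors, and 13 with sample quality weights. The count of 1 lower was 0 without any of SP libraries 1 and 2 and NSP libraries 2 to 4, 2 without NSP library 1 and 4 without SP library 4. Over all tested genes, 30.5% were called with upper-quartile factors. The shares with quality weights or with a library left out are not given here. Changes were also small: 7.69% of the members had a log2 fold change of 1 or more in size, against 40.4% of all tested genes. RPL10L, a copy of RPL10 known from testis, and EIF4E1B, an oocyte relative of eIF4E, were not tested, with 2 reads each over the SP libraries and none in NSP.

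**Figure D1:**
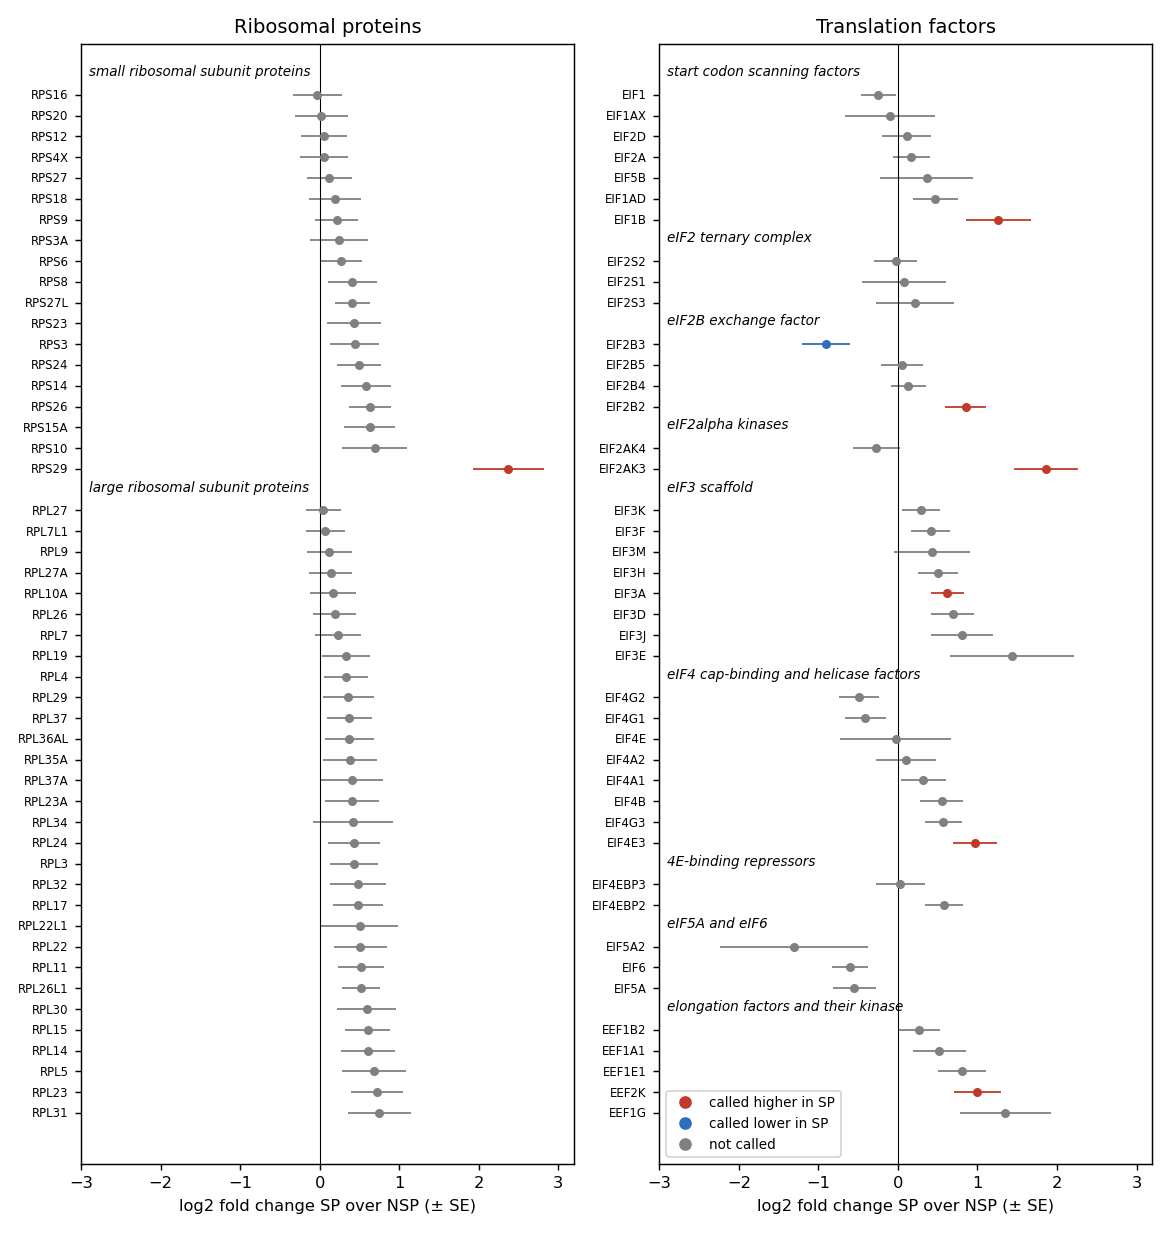
Log2 fold change of SP over NSP (x axis) with its standard error for the 91 tested members, grouped by role and ordered within each role, from the limma-voom fit over 4 libraries per group. Red points were called higher in SP, the blue point lower and grey points were not called: all ribosomal proteins but RPS29 lie between -0.03 and 0.75, while the factors spread from -1.31 to 1.86.

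Most of the members that were not called still had a fitted fold change on the SP side. It was above 0 for 79 of 91 members (86.8%), against 54.4% of all tested genes, and the median log2 fold change was 0.40 against 0.11. How many members lie above 0 depended on the scaling. With median-ratio factors it was 69 and with upper-quartile factors 63 of 91, while the median of all genes moved to 0.00 and -0.07. The medians of the members moved with it, to 0.29 and 0.21, since a change of factors shifts every gene by about the same amount. Upper-quartile factors also turned the calls over all genes from 1758 higher and 1330 lower to 1407 higher and 1650 lower. The CPM of the groups did not overlap for 9 members that were higher and 2 that were lower in SP, out of 91. Over all tested genes this held for 32.8%, with 18.6% higher and 14.2% lower. The 9 were RPS29, RPS27L, EIF2AK3, EIF1B, EIF4E3, EIF2B2, EIF3A, EIF4G3 and EEF1E1, and the 2 were EIF2B3 and EIF6. The count of 9 was 6 with upper-quartile factors, 14 with library totals alone, 22 without SP library 1, 18 without SP library 4 and 17 without NSP library 1. The count of 2 was 4 without SP library 4 or with upper-quartile factors, and 1 with library totals alone or with factors made without the members. Leaving out a library makes overlap less likely for any gene. The non-overlap shares over all tested genes under these alternatives are not given here.

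As a share of all exon reads, the 93 members together held 8.3%, 9.24%, 13.1% and 9.23% in the 4 SP libraries. In the NSP libraries they held 8.96%, 7.92%, 5.89% and 8.32%. The groups overlapped, since SP library 1 lay below NSP libraries 1 and 4, and the means were 9.97% ± 2.13 (SD, n = 4) and 7.77% ± 1.33 (SD, n = 4). Ribosomal proteins accounted for 6.09% ± 1.47 (SD, n = 4) in SP and 4.59% ± 0.848 (SD, n = 4) in NSP.

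A single gene, EEF1A1, which delivers aminoacyl-tRNA to the ribosome, held 2.16% ± 0.557 (SD, n = 4) of SP reads and 1.49% ± 0.472 (SD, n = 4) of NSP reads. The other 42 factors had nearly the same share in the groups, 1.72% ± 0.197 and 1.69% ± 0.0257 (SD, n = 4 each). Reads of large-subunit genes over those of small-subunit genes came to 1.05, 1.05, 0.999 and 1.14 in SP and to 0.986, 0.979, 1.02 and 0.969 in NSP. SP library 3, the lowest of its group, lay below NSP library 3, the highest of its group, so these ratios overlapped too.

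**Figure D2:**
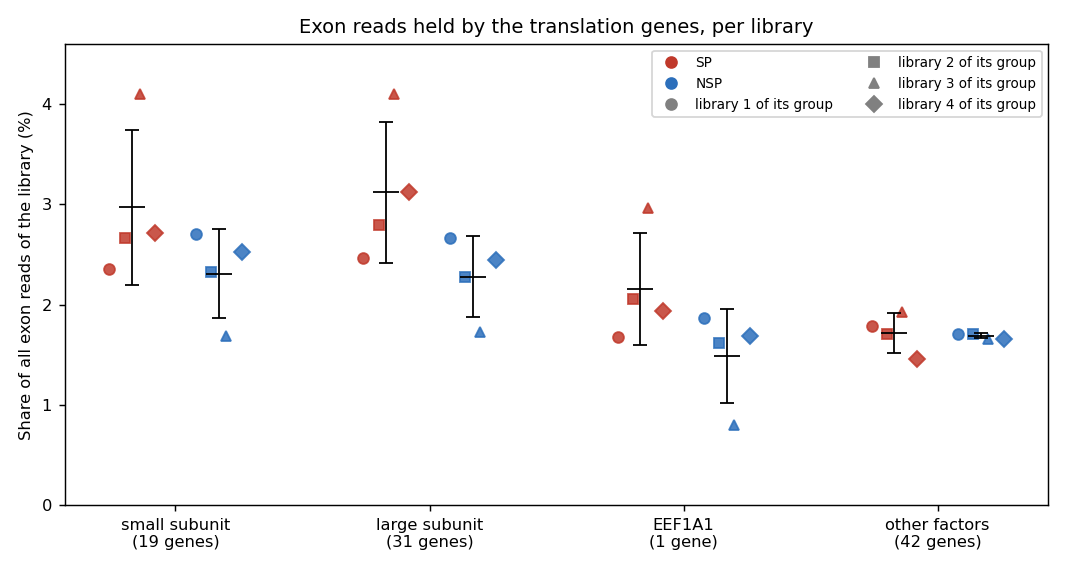
Share of each library's exon reads (y axis, percent) held by small-subunit genes, large-subunit genes, EEF1A1 and the other 42 factors. Red marks are SP and blue marks NSP libraries, the marker shape gives the library number, and black bars show the mean and SD of 4 libraries: SP library 3 is highest and NSP library 3 lowest in the first 3 sets, and the last set differs little.

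Among small-subunit proteins, RPS29 rose and the other 18 were not called. RPS29 encodes a small zinc-binding protein of the small subunit. Its level was 38.8, 18.3, 31.7 and 18.3 CPM in the SP libraries and 6.73, 6.77, 2.75 and 4.57 CPM in the NSP libraries. Every SP library was higher than every NSP library. The log2 fold change was 2.37 ± 0.45 (SE), with an adjusted p of 0.0031, and it stayed past the threshold in each of 19 fits (range 1.97 to 2.54).

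RPS29 was also the ribosomal protein with the fewest reads among the tested ones, 1932 in SP and 444 in NSP. Per kilobase of gene model, which for RPS29 has 273 bases, it reached 98.1 ± 37.3 CPM in SP and 19.1 ± 7.08 CPM in NSP (SD, n = 4 each). RPS27, the most abundant ribosomal protein on this scale, reached 6194 ± 1893 and 5668 ± 1532 CPM per kilobase (SD, n = 4 each). Ribosomal protein genes have many near-identical copies in mammalian genomes. How reads that fit several copies were counted is not given in the sources used here, so the levels of single ribosomal proteins are uncertain.

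The remaining small-subunit genes had log2 fold changes between -0.03 for RPS16 and 0.69 for RPS10. RPS6, the substrate of the S6 kinases, had 2733, 2946, 5116 and 3362 CPM in SP and 3199, 2817, 2282 and 3198 CPM in NSP. Its groups overlapped, and the log2 fold change was 0.27 ± 0.26 (SE; adjusted p = 0.464). RPS18, a protein of the head of the small subunit, stood at 0.19 ± 0.33 (SE; adjusted p = 0.698) with groups that overlapped as well.

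RPS27L, a relative of RPS27 known as a target of p53, had 435, 538, 449.9 and 404.5 CPM in SP and 394, 261, 368 and 365 CPM in NSP. The groups did not overlap, but the lowest SP library and the highest NSP library were close, and the log2 fold change of 0.41 ± 0.22 (SE) had an adjusted p of 0.18. RPS26 came nearest to the threshold among the uncalled small-subunit genes, at 0.63 ± 0.26 (SE; adjusted p = 0.0945).

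None of the 30 tested large-subunit proteins was called, also at an unadjusted p of 0.05, where the count was 0 as well. All 30 had a fitted log2 fold change above 0, between 0.04 for RPL27 and 0.75 for RPL31, with a median of 0.41. Under the other scalings, the count of all ribosomal proteins above 0 ranged from 39 to 49 of 49. RPL3, a protein near the site of peptide bond formation and the large-subunit gene with the highest mean CPM, had 3479.9, 4879, 7106 and 8219 CPM in SP. In NSP it had 4617, 4263, 3409 and 4531 CPM. Its SP libraries 2 to 4 were above all NSP libraries and SP library 1 was not, and the log2 fold change was 0.43 ± 0.30 (SE; adjusted p = 0.3).

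RPL31 had 440.5, 325, 912 and 429 CPM in SP against 552, 216, 196 and 299 CPM in NSP. SP library 3 and NSP library 1 were the highest of their groups, the ranges overlapped, and the log2 fold change was 0.75 ± 0.39 (SE; adjusted p = 0.174). RPL22, a protein that also binds RNA outside the ribosome, had a log2 fold change of 0.51 ± 0.33 (SE; adjusted p = 0.274).

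The ribosomal proteins moved together from library to library within a group. SP library 3 was the highest SP library for 35 of 49 ribosomal proteins and SP library 1 the lowest for 35. SP library 4 was the lowest SP library for 11 and the highest for 11. Among NSP libraries, library 1 was the highest for 39 and library 3 the lowest for 39. Against each gene's mean over the 8 libraries, the median ribosomal protein lay at 0.69 in SP library 3 and at -0.24 in SP library 1 on the log2 scale. It lay at 0.15 in NSP library 1 and at -0.62 in NSP library 3. In SP library 4 the ribosomal proteins ranged from -1.14 to 0.95. The same values over all tested genes are not given here.

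Among the factors, SP library 3 was the highest SP library for 18 of 42 factors and SP library 4 the lowest for 20. In SP library 4, 13 of 91 members (14.3%) lay at less than 1/2 of the lowest other SP library, which is near the 12.2% of all tested genes. The 13 were EIF1AX, EIF2S1, EIF2S3, EIF3E, EIF3J, EIF3M, EIF4A2, EIF4E, EIF5A2, EIF5B, RPL22L1, RPL5 and RPS3A, so 10 of them are factors. The factor of 2 for this count was chosen after the values were seen.

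**Figure D3:**
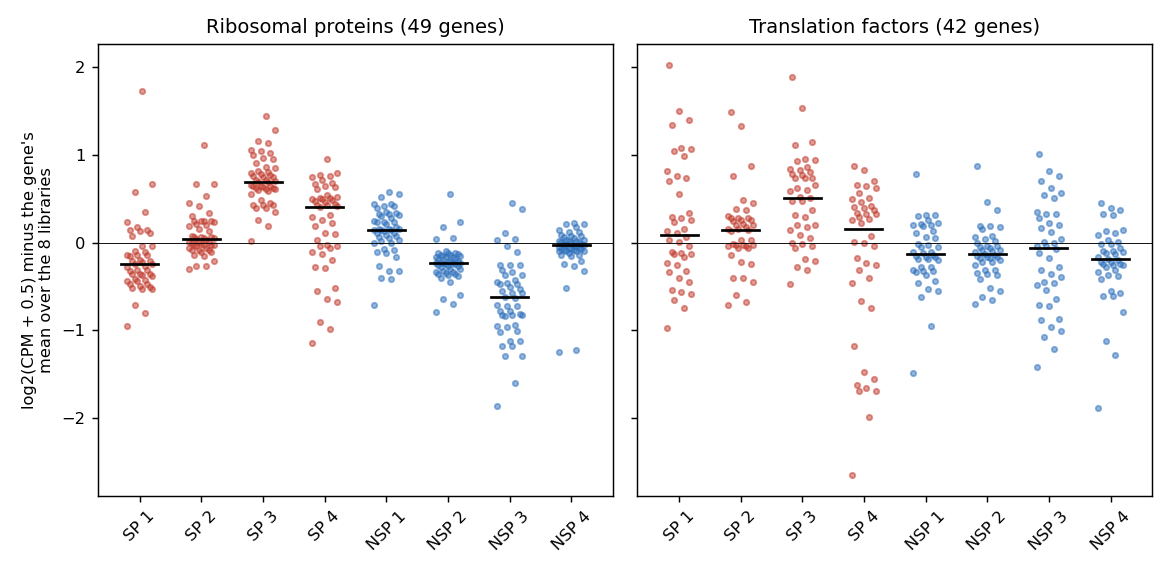
Log2(CPM + 0.5) of each tested member minus its mean over the 8 libraries (y axis), by library (x axis), for 49 ribosomal proteins and 42 translation factors. Points are genes, red in SP and blue in NSP, and black bars are medians: ribosomal proteins sit highest in SP library 3 (median 0.69) and lowest in NSP library 3 (median -0.62), and factors in SP library 4 form a tail that reaches -2.65.

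Of the 42 tested factors, 6 rose, 1 fell and 35 were not called, which is 16.7% called, against 30.8% of all tested genes. The 6 include the kinase genes EIF2AK3 and EEF2K. Of the 7 tested members grouped here as start codon scanning factors, not all of which act in scanning itself, EIF1B rose. It encodes a near relative of EIF1, the protein that keeps the scanning ribosome open until a start codon is met. EIF1B had 93.7, 34.4, 78.4 and 34.0 CPM in SP and 27.8, 24.4, 14.9 and 26.1 CPM in NSP. SP libraries 1 and 3 were well above the other 2, and all 4 were above the NSP libraries. The log2 fold change was 1.26 ± 0.41 (SE; adjusted p = 0.0374), and the call ended with upper-quartile factors and without any of SP libraries 1 and 3 and NSP libraries 1 to 4.

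EIF1 itself was more abundant, with 4173, 4313, 4680.2 and 3412 CPM in SP and 5559, 5126, 4137 and 4925 CPM in NSP. These ranges overlapped, and the log2 fold change was -0.25 ± 0.22 (SE; adjusted p = 0.405). The remaining 5 members of this group, among them EIF5B, which joins the subunits, ranged from -0.10 to 0.47.

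The complex eIF2, which carries the initiator tRNA, did not differ beyond its spread. EIF2S1, its alpha subunit and the target of the stress kinases, had 178, 102, 123 and 26.3 CPM in SP and 59.5, 73.8, 152 and 76.9 CPM in NSP. SP library 4 was the lowest of all 8 libraries, and the log2 fold change was 0.08 ± 0.53 (SE; adjusted p = 0.931). EIF2S2 stood at -0.03 ± 0.27 (SE) and EIF2S3 at 0.21 ± 0.49 (SE), neither called.

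Of the 4 measured subunits of eIF2B, the factor that recharges eIF2 with GTP, EIF2B2 rose and EIF2B3 fell. EIF2B2, the regulatory beta subunit, had 43.0, 51.6, 60.5 and 77.9 CPM in SP and 31.1, 25.8, 32.8 and 36.8 CPM in NSP. The groups did not overlap, and the log2 fold change was 0.85 ± 0.26 (SE; adjusted p = 0.0292). The call ended with median-ratio and upper-quartile factors and without any of SP libraries 3 and 4 and NSP libraries 1 to 4, with adjusted p up to 0.106.

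EIF2B3, the gamma subunit that pairs with the catalytic epsilon subunit, had 22.2, 19.8, 31.2 and 23.5 CPM in SP and 31.5, 42.5, 66.0 and 44.6 CPM in NSP. SP library 3 and NSP library 1 nearly met, and the log2 fold change was -0.90 ± 0.30 (SE; adjusted p = 0.0424). This call ended with library totals alone, without the filter on low counts, and without any of SP libraries 1 and 2 and NSP libraries 2 to 4. EIF2B4 and EIF2B5, the latter the catalytic subunit, stood at 0.13 ± 0.22 (SE) and 0.05 ± 0.26 (SE), and their groups overlapped.

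Of the 2 eIF2alpha kinases among the members, EIF2AK3 rose. It encodes PERK, which senses unfolded protein in the endoplasmic reticulum and then slows initiation by phosphorylating eIF2alpha. Its level was 82.8, 99.45, 71.7 and 52.8 CPM in SP and 35.0, 34.2, 14.4 and 10.2 CPM in NSP. Every SP library lay above every NSP library, and NSP libraries 3 and 4 were lower than libraries 1 and 2. The log2 fold change was 1.86 ± 0.40 (SE; adjusted p = 0.00651), and the gene passed the threshold in each of 19 fits (range 1.53 to 2.19). EIF2AK4, the kinase GCN2 that senses uncharged tRNA, had a log2 fold change of -0.27 ± 0.30 (SE; adjusted p = 0.523).

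**Figure D4:**
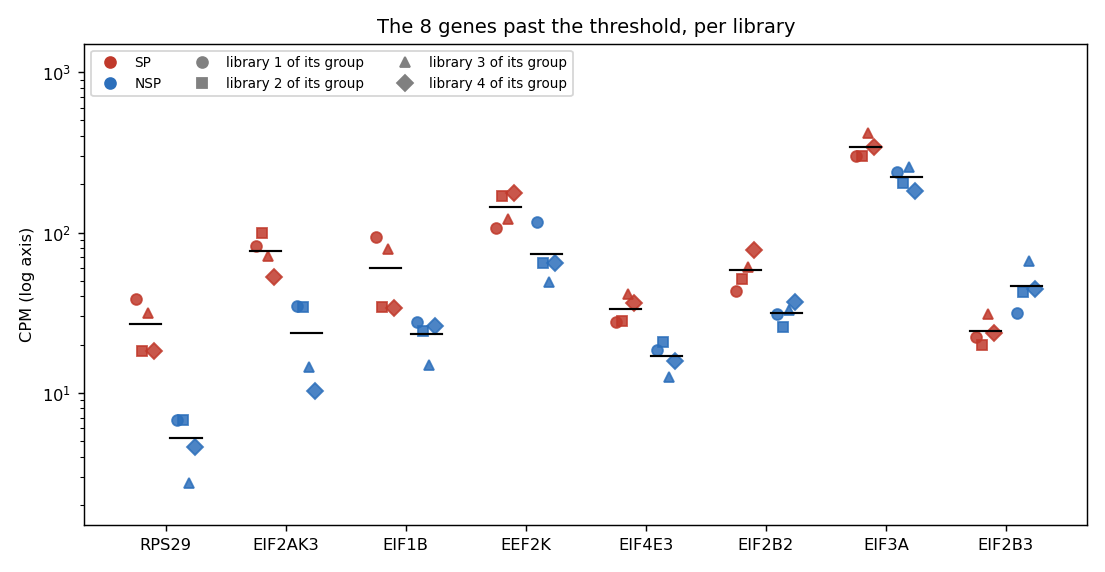
CPM (y axis, log scale) of the 8 called members in each library, with SP in red and NSP in blue, the marker shape giving the library number and black lines the group means. The groups are apart for each gene except EEF2K, where NSP library 1 lies above SP library 1, and the distance is widest for RPS29 and EIF2AK3.

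All 8 measured subunits of eIF3, the large scaffold that holds the initiation complex together, had a fitted fold change above 0 (0.29 to 1.43), and EIF3A alone rose. EIF3A, the core subunit, had 302, 299, 416.5 and 342 CPM in SP and 239, 204, 258 and 182 CPM in NSP. The groups did not overlap. Its log2 fold change was 0.62 ± 0.21 (SE; adjusted p = 0.0484), and the call held in 9 of 19 fits. It ended with median-ratio factors, upper-quartile factors and no filter, and without any library except NSP library 3.

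EIF3E had the largest fitted change of the eIF3 genes and the least even libraries. Its values were 287, 128, 261 and 17.2 CPM in SP and 35.9, 47.6, 61.8 and 31.9 CPM in NSP. SP libraries 1 to 3 were above all NSP libraries and SP library 4 below them all, and the log2 fold change was 1.43 ± 0.78 (SE; adjusted p = 0.192). Without SP library 4 it was 2.16 with an adjusted p of 0.00192. EIF3F had 466, 648, 970.0 and 699 CPM in SP and 529, 532, 423 and 548 CPM in NSP. SP libraries 2 to 4 exceeded all NSP libraries, and the log2 fold change was 0.41 ± 0.25 (SE; adjusted p = 0.242).

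The cap-binding group contains eIF4E, which holds the cap, the helicase eIF4A and the scaffold eIF4G. Of its 8 tested genes, EIF4E3 rose and 7 were not called. EIF4E3, an atypical cap-binding relative of eIF4E, had 27.7, 28.2, 41.2 and 36.5 CPM in SP and 18.6, 20.7, 12.6 and 15.8 CPM in NSP. The groups did not overlap, with a log2 fold change of 0.97 ± 0.28 (SE; adjusted p = 0.0238). The call ended with upper-quartile factors and without any of SP library 3 and NSP libraries 1, 3 and 4.

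EIF4E had 153, 101, 138 and 10.97 CPM in SP and 57.2, 81.6, 106.2 and 59.1 CPM in NSP. SP library 4 lay far below the other 7 libraries, and the log2 fold change was -0.03 ± 0.70 (SE; adjusted p = 0.977). Without SP library 4 it turned to 0.65 ± 0.26 (SE; adjusted p = 0.0816). EIF4A1, the main helicase, stood at 0.32 ± 0.28 (SE; adjusted p = 0.43) and EIF4A2 at 0.10 ± 0.38 (SE; adjusted p = 0.864).

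None of the 3 scaffold genes was called, and their fitted changes differed in sign. EIF4G1, the major scaffold, had 485, 469.5, 459.6 and 907 CPM in SP and 662, 724, 777 and 795 CPM in NSP. SP libraries 1 to 3 were below and SP library 4 above all NSP libraries, giving a log2 fold change of -0.41 ± 0.26 (SE; adjusted p = 0.262). Without SP library 4 it was -0.80 with an adjusted p of 0.0074.

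EIF4G2, which lacks the eIF4E-binding site and serves other routes of initiation, was the most abundant eIF4 gene by CPM. It had 3063, 2689, 2249.8 and 1672 CPM in SP and 3222, 3123, 4059.9 and 2964 CPM in NSP. SP library 1 overlapped the NSP range, and the log2 fold change was -0.49 ± 0.25 (SE; adjusted p = 0.16). EIF4G3 had 77.8, 71.2, 108.6 and 64.5 CPM in SP and 56.5, 58.0, 49.4 and 50.1 CPM in NSP. Its groups did not overlap, yet the log2 fold change of 0.57 ± 0.23 (SE) had an adjusted p of 0.0853.

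Neither measured repressor of eIF4E was called. EIF4EBP2 had 346, 468, 597 and 477 CPM in SP and 373.5, 341, 232 and 317.5 CPM in NSP, with SP library 1 inside the NSP range. Its log2 fold change was 0.58 ± 0.24 (SE; adjusted p = 0.0994), and that of EIF4EBP3 was 0.03 ± 0.31 (SE; adjusted p = 0.949).

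EIF5A, EIF5A2 and EIF6 were the only role whose tested genes all had a fitted change below 0, and none was called. EIF5A, which eases the ribosome over difficult peptide bonds, had 1044, 1094, 1449 and 2071 CPM in SP and 2057, 1609, 2344 and 2059.9 CPM in NSP. SP libraries 1 to 3 were below all NSP libraries and SP library 4 was not, and the log2 fold change was -0.55 ± 0.27 (SE; adjusted p = 0.145). Without SP library 4 it was -0.91 with an adjusted p of 0.0108.

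EIF6, which keeps free large subunits from joining small ones, had 180.2, 205, 224 and 287 CPM in SP and 293, 287, 417 and 357 CPM in NSP. SP library 4 and NSP library 2 nearly touched, although the groups did not overlap. The log2 fold change of -0.60 ± 0.23 (SE) had an adjusted p of 0.0703, and it passed the threshold in 5 other fits, among them without SP library 4 (-0.88, adjusted p = 0.00836). EIF5A2 was near the limit of detection, with 86 reads in SP and 167 in NSP, and its log2 fold change was -1.31 ± 0.93 (SE; adjusted p = 0.318), which became -0.65 without SP library 4, -1.95 without SP library 1 and -0.37 with limma-trend at an offset of 2.

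All 5 genes grouped here with the elongation factors, not all of which are such factors, had a fitted change above 0. Of these, EEF2K alone rose. It encodes the kinase that phosphorylates eEF2 and so slows elongation. EEF2K had 107, 169, 121.5 and 177 CPM in SP and 116, 64.3, 49.1 and 64.9 CPM in NSP. NSP library 1 lay above SP library 1, so the groups overlapped, and NSP library 1 was well above the other NSP libraries. The log2 fold change was 1.00 ± 0.30 (SE; adjusted p = 0.027), and the call ended with upper-quartile factors and without any of SP libraries 2 and 4 and NSP libraries 2 to 4.

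EEF1A1 was the most abundant member, with 14758, 19967, 29911 and 20963 CPM in SP and 19869, 15733, 8236 and 17103 CPM in NSP. SP library 3 was the highest and NSP library 3 the lowest, and SP library 1 lay below 3 NSP libraries. The log2 fold change was 0.52 ± 0.33 (SE; adjusted p = 0.265).

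EEF1G, a subunit of the complex that recharges eEF1A, had 135, 749, 773 and 422 CPM in SP and 95.02, 278.5, 267 and 109.6 CPM in NSP. SP library 1 lay inside the NSP range, and the log2 fold change of 1.35 ± 0.57 (SE) had an adjusted p of 0.0973. EEF1E1, an auxiliary protein of the tRNA synthetase complex, had 36.8, 35.3, 56.7 and 29.2 CPM in SP and 23.9, 27.0, 14.7 and 24.1 CPM in NSP. Its groups did not overlap, with a log2 fold change of 0.81 ± 0.30 (SE; adjusted p = 0.0657).

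Per kilobase of gene model, the members spanned a wide range. EEF1A1 led in each group, at 12573 ± 3697 CPM per kilobase in SP and 8951 ± 2922 in NSP (SD, n = 4 each), and RPS27 came next in each. In SP, RPS26 (5740.4 ± 1791), RPS18 (4734 ± 1974) and RPL3 (4419 ± 1597) followed, and these neighbours did not differ beyond their SD. Among the factors, EIF1 came after EEF1A1, at 3251 ± 418 in SP and 3872 ± 467 in NSP. EIF5A2 was the lowest tested member, at 0.189 ± 0.182 in SP and 0.321 ± 0.143 in NSP. The lowest tested ribosomal protein was RPL26L1 in SP, at 60.4 ± 15.6, and RPS29 in NSP, at 19.1 ± 7.08.

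Several members are paralogs or alternative subunits, and their ratio within a library does not depend on scaling. Of 20 listed pairs, 10 could be tested by an exact two-sided permutation test over all 70 ways to assign the 8 libraries, whose smallest p is 0.029. No pair passed after Benjamini-Hochberg adjustment over the 10 pairs, and 1 had an unadjusted p under 0.05. This was EIF1B to EIF1, with log2 ratios of -5.48, -6.97, -5.90 and -6.65 in SP and -7.64, -7.72, -8.12 and -7.56 in NSP. All 4 SP libraries lay above the NSP libraries, the difference was 1.51, and the exact permutation p was 0.029, the smallest this test can give (adjusted p = 0.286). A single pair at the smallest p could therefore not pass after adjustment. That no pair passed does not show that the ratios were alike in the groups.

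EIF4G3 to EIF4G1 differed by 0.97 (exact permutation p = 0.0857, adjusted p = 0.429), with SP library 4 inside the NSP range. The ratio of EIF4E3 to EIF4E was -2.46, -1.84, -1.74 and 1.73 in SP and -1.62, -1.98, -3.08 and -1.90 in NSP. SP library 4, where EIF4E was low, stood apart, and the difference of 1.07 had an exact permutation p of 0.4. Without that library the difference was 0.13. EIF5A2 to EIF5A differed by -0.83 (exact permutation p = 0.657), with few EIF5A2 reads. It turned to 0.29 without SP library 4 and was -1.60 without SP library 1.

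The 4 ribosomal pairs differed by 0.34 or less in size. The differences were -0.03 for RPL22L1 to RPL22, -0.16 for RPL7L1 to RPL7, 0.34 for RPL26L1 to RPL26 and 0.29 for RPS27L to RPS27, with exact permutation p from 0.257 to 0.971. EIF4A2 to EIF4A1 and EIF4G2 to EIF4G1 differed by -0.21 and -0.08.

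**Figure D5:**
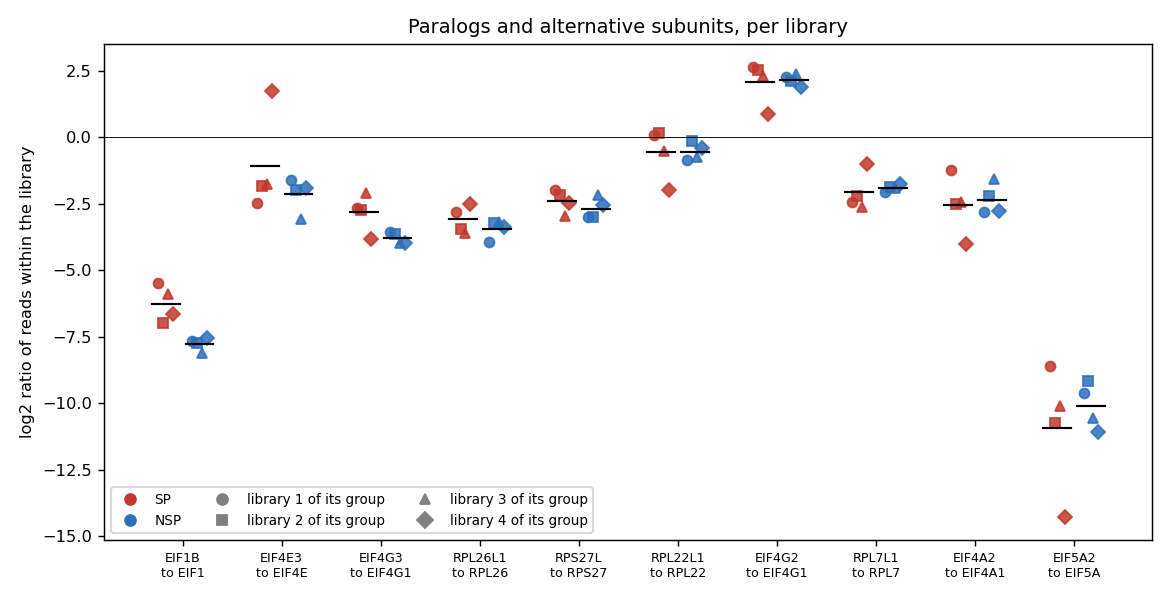
Log2 ratio of the reads of 2 paralogs or alternative subunits within each library (y axis), for the 10 tested pairs (x axis), with SP in red and NSP in blue, the marker shape giving the library number and black lines the group means. Only for EIF1B to EIF1 are the groups apart, and SP library 4 lies below or above the other 3 SP libraries for several pairs, among them EIF4E3 to EIF4E, EIF5A2 to EIF5A, EIF4G2 to EIF4G1, RPL7L1 to RPL7 and RPL22L1 to RPL22.

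Genes that work with the ribosome but lie outside the symbol rule were read from the same fit, in 4 lists. Of the ribosome genes with other symbols, RPSA, GNB2L1, NACA and TPT1 had an entry, and none was called (median log2 fold change 0.44). Of 35 measured genes of ribosome biogenesis, 4 rose, none fell and 31 were not called (median 0.38). This is 11.4% called, against 30.8% of all tested genes, whose median was 0.11. GNL3, the nucleolar protein nucleostemin, had 253.5, 269.8, 375 and 283 CPM in SP and 151, 152, 100 and 147 CPM in NSP. Its groups were well apart, with a log2 fold change of 1.11 ± 0.23 (SE; adjusted p = 0.00488).

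POLR1B, a core subunit of RNA polymerase I, rose by 1.34 ± 0.34 (SE; adjusted p = 0.0129) on the log2 scale. NOB1, the nuclease that finishes the small-subunit RNA, rose by 1.66 ± 0.46 (SE; adjusted p = 0.0204), and UTP14A was the other gene that rose. POLR1B was not called without NSP library 1, nor NOB1 without any of SP library 3 and NSP libraries 1 to 3. The count of 4 fell to 1 without NSP library 1 and to 2 without any of SP library 3 and NSP libraries 2 and 3, and without SP library 4 there were 2 genes called lower. The share of all tested genes called with a library left out is not given here.

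In the list for termination, recycling and ribosome quality control, 7 of 21 measured genes rose, none fell and 14 were not called (median 0.52). The called share of 33.3% was near the 30.8% of all tested genes, and 17.6% of all tested genes were called higher. PELO, which rescues stalled ribosomes, had 108, 154, 129 and 181 CPM in SP and 63.4, 74.7, 74.2 and 76.5 CPM in NSP, with a log2 fold change of 0.96 ± 0.22 (SE; adjusted p = 0.0089). Every SP library was above every NSP library. GTPBP1, a GTPase related to elongation factors, rose by 0.98 ± 0.26 (SE; adjusted p = 0.0166). LARP1, which binds the messages of ribosomal proteins under the control of mTOR, rose by 0.90 ± 0.25 (SE; adjusted p = 0.0213). Without NSP library 1 neither PELO nor GTPBP1 was called, nor was GTPBP1 without NSP library 2. LARP1 was not called with upper-quartile factors or without any of SP library 3 and NSP libraries 2 and 4. The count of 7 was 2 with upper-quartile factors, 1 without NSP library 1, 2 without any of SP library 3 and NSP libraries 2 and 4, and 4 without SP library 2. Over all tested genes, upper-quartile factors gave 1407 called higher, against 1758 with TMM factors. How many of all tested genes were called with a library left out is not given here.

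In the list for mTOR and S6 kinase control, 5 of 22 measured genes rose, 1 fell and 16 were not called (median 0.46). The called share of 27.3% was also near that of all tested genes, 30.8%, with 22.7% against 17.6% higher. RRAGD, a Rag GTPase that brings mTOR to the lysosome, had 44.4, 68.0, 86.2 and 134 CPM in SP and 11.2, 12.9, 10.3 and 9.57 CPM in NSP. The groups were far apart, with a log2 fold change of 2.80 ± 0.40 (SE; adjusted p = 0.000716). RRAGC, the other Rag GTPase of this type, rose by 1.64 ± 0.33 (SE; adjusted p = 0.00454). Of the S6 kinase relatives, RPS6KA5 rose by 1.04 ± 0.27 (SE; adjusted p = 0.014), and RPS6KA6 fell, with a log2 fold change of -2.69 ± 0.76 (SE; adjusted p = 0.0222) at only 24 reads in SP and 201 in NSP. The count of 5 was 3 without NSP library 1 or 3 and 8 with sample quality weights. Shares over all tested genes in these fits are not given here. RPS6KA5 was not called without NSP library 1. RPS6KA6 was not called without SP library 3, without NSP library 2 or with quality weights, and the stricter filter removed it.

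In the authors' deposited table, 4 of the 93 members (4.3%) had a corrected p under 0.05 in the EDGE test, against 13.4% of all 20922 gene entries. Only 10012 of these entries passed the filter on low counts used here, against 91 of the 93 members, so the 2 shares have unlike bases. All 4 were higher in SP in the authors' deposited table: RPS29 by 4.70-fold (corrected p = 0.000315), EIF3E by 3.53-fold (0.015768), EIF2AK3 by 2.99-fold (0.006686) and EIF1B by 2.35-fold (0.042972). Of these 4, 3 were also called by limma-voom, and EIF3E was not.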

How the data were processed

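RNA-seq of 4 SP and 4 NSP samples was analysed. The authors deposited 1 fixed-width table (163 fields of 8 characters in 6 stacked blocks), read here by character position. Exon reads per gene and library are whole numbers and were taken as unscaled counts. Their group means match those deposited by the authors within 0.05, which checks the columns that were read but not the scaling. Gene lengths are the deposited field that is the same for every library. Fold changes and corrected p-values of an EDGE test are the authors', per the file headers. The aligner, genome build, annotation and strand setting were not given in the sources used here. Another 143 per-library columns were not used. Columns name the group but no sample.

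All 93 member symbols were found in a RefSeq table (mOryCun1.1), used for names only. Members and lists were chosen with earlier results of these data known. Promoter and protein sequences were not analysed here. TMM factors (trims of 30% and 5%) were computed here. Genes with a CPM of at least 0.508 in 4 libraries and 15 reads in all were tested with limma-voom (limma 3.58.1, R 4.3.3; offset 0.5, group only, all 8 libraries, two-sided, Benjamini-Hochberg over 10012 genes). The procedure was tested on simulated data. A quasi-likelihood count test was not run. Pair ratios used reads plus 0.5. Marker and related lists were read from the same fit.

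Named members are both genes of tested pairs, up to 8 largest rises and falls past the threshold, per role the 2 smallest p per direction and the highest mean CPM, and fixed genes, and of each related list up to 3 per direction. RPS10, RPS16, RPS26, RPL27, RPL31, EIF5B, EIF2S3, EIF2B5, EIF2AK4, EIF4EBP3, EEF1G, EEF1E1, UTP14A and those listed by count were named after their values were seen. Alternatives covered scaling, filter, test, offset, thinning to 15553295 reads and each library left out. Figures were drawn with matplotlib 3.10.9 under Python 3.11.15, after tables were handled with NumPy 2.4.6 and pandas 2.3.3.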

Additional observations from a re-analysis of the deposited data

Results flagged for a closer look

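Within each group of 4 libraries, the CPM of the 36 named members were searched for a single value far from the rest (its gap to the nearest divided by the range, above Dixon's 95% critical value), in 72 gene and group pairs. Chance gives about 5% of such groups, and 4 values were found. EIF4G1 in SP library 4 was 907 CPM, with the nearest SP library at 485 CPM. RPL7 in NSP library 3 was 1484 CPM, with the nearest at 964 CPM. RPL22L1 in NSP library 3 was 30.8 CPM, with the nearest at 80.5 CPM. EIF3F in NSP library 3 was 423 CPM, with the nearest at 529 CPM. NSP library 3 holds 3 of the 4 values, and it was low for 2 of these genes and high for RPL7.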

How the results depend on the processing

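The count of members that rose was 7; it was 2 with upper-quartile factors, 13 with sample quality weights and 2 to 10 with a library left out. Without SP library 3 or NSP libraries 1, 2 or 3 it was 3, and without NSP library 4 it was 2. The count that fell was 1; it was 2 with median-ratio or upper-quartile factors, 0 with library totals alone or no filter, 4 with quality weights and 0 to 4 with a library left out. It was 0 without SP library 1 or 2 or NSP library 2, 3 or 4, 2 without NSP library 1 and 4 without SP library 4. The cause was not tested. Members higher in SP without overlap numbered 9, and 6 with upper-quartile factors, 14 with library totals, 22 without SP library 1, 18 without SP library 4 and 17 without NSP library 1. The 2 lower without overlap became 4 with upper-quartile factors or without SP library 4, and 1 with library totals or with factors made without the members. Overlap is less likely for any gene once a library is left out, and the shares over all tested genes are not given there. The read shares moved by less than 1 SD (SP 8.92% to 11.1%, NSP 7.38% to 8.45%). No pair passed under any alternative, but a single pair could not pass under these either, so this does not measure how stable the pair result is. Among the values of named members under alternatives, 587 kept their side of the threshold, 43 of the called genes' values lost it and 13 passed it. The other 4, all uncalled, changed sign by more than the standard error of the main fit. Some of the 587 also changed sign, but by less than that, such as EIF4E, from -0.03 to 0.65 without SP library 4. Alternatives for the lists and for overlap were chosen after seeing the data. No paired analysis was possible because the columns name the group and carry no replicate numbers. No member has a numbered copy in the table, so leaving such members out changes nothing, and sequence features near the gene starts were not analysed here. Read depth limits the rarest members, EIF5A2 with 86 reads in SP and 167 in NSP and RPS29 with 444 reads in NSP. At an unadjusted p of 0.05, 15 of 91 members passed (16.5%), against 41.8% of all tested genes.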

Other observations

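EEF1G and RPL34 had a similar order of libraries, seen after the values were known. RPL34, a large-subunit protein, had 205, 727, 670.3 and 229 CPM in the SP libraries and 278, 492, 361 and 142 CPM in the NSP libraries. EEF1G had 135, 749, 773 and 422 CPM in SP and 95.02, 278.5, 267 and 109.6 CPM in NSP. In SP, libraries 2 and 3 were the high ones for each gene. In NSP, libraries 2 and 3 were again the highest for each gene.

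NSP library 3 lay at less than 1/2 of the lowest other NSP library for RPL22L1, RPL23A, RPL37A and RPS10, which is 4 of 91 members, and 8.33% of all tested genes did so. RPS10 had 731, 437, 177 and 574 CPM in NSP libraries 1 to 4. SP library 1 was low in the same sense for EEF1G, RPL36AL and RPS16, and 6.68% of all tested genes were. SP libraries 2 and 3 and NSP libraries 1, 2 and 4 had no such member. RPSA, the laminin-binding protein of the small subunit that lies outside the symbol rule, varied widely in NSP, with 1940 CPM in library 1 and 226 CPM in library 3, against 552 to 1776 CPM in SP.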
